A study of Mus musculus with 20 samples.

Results

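Cytosolic ribosomal protein genes encode the protein part of the machine that makes all other proteins. The set was chosen by name, as every gene symbol that starts with Rpl or Rps and a digit, without pseudogene names (-ps) and without the Rps6k kinases. It held 83 of the 28030 genes used, 33 with a small subunit name (Rps) and 50 with a large subunit name (Rpl). The values come from single-cell RNA sequencing of tumours 8 days after CD8 T cells had been transferred into mice. The 4 groups, each a single library, were Tet2 knockout T cells with anti-PD-L1, Tet2 knockout T cells untreated, wild-type T cells given the antibody and wild-type T cells untreated. In all groups the transferred cells carried OT-I, a transgenic receptor for an ovalbumin peptide, and the tumour was B16-OVA, a mouse melanoma line made to express ovalbumin. Tet2 is an enzyme that oxidises 5-methylcytosine, and its knockout (Tet2-/-) was in the donor T cells, so the melanoma line and the host's macrophages were not the cells that carried it. CD8 T cells of the host may stand among the CD8 T cells, since no label tells them from transferred ones. The age of the animals, the number behind a library and the dose of the antibody are missing from the labels. The series asks what loss of Tet2 does to T cells inside a tumour, and the 8 RNA and 8 ATAC sequencing samples of earlier days were not analysed here.

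Ribosomal proteins assemble with ribosomal RNA in the nucleolus into a small subunit, which decodes the messenger, and a large subunit, which joins amino acids. Each subunit holds a single copy of most of its proteins, and free ribosomal proteins are degraded. Their messengers are among the most abundant in any cell and many start with a run of C and T letters, the terminal oligopyrimidine motif, through which mTOR signalling controls their translation. Activated T cells enlarge and build ribosomes before they divide.

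The libraries held 11835449 to 16208689 UMIs, or unique molecular identifiers, each counting 1 captured messenger, and 7398 cells passed the filters. The CD8 T cells were 1034 in knockout with anti-PD-L1, 1569 in untreated knockout, 1335 in wild-type with anti-PD-L1 and 1129 in untreated wild-type. Macrophage-like cells were 181, 405, 175 and 204, and melanoma-like cells 50, 190, 70 and 928, in the same order of libraries. Own markers summed to between 9637 and 11275 CPM in CD8 T cells, to between 22156 and 35158 in macrophage-like cells and to between 16884 and 19250 in melanoma-like cells, where CPM is the gene's UMIs scaled to a class total of 1e6. The wild-type untreated library stood apart. Of its CD8 T cells 60.3% lay in cluster 1 and 29.2% in cluster 2, against 18.1% and 3.00% in knockout untreated, and most cells of the other 3 libraries lay in clusters 5, 6, 7, 9, 12 and 13. Clusters 5, 6, 7, 12 and 13 had a listed marker of another cell class among their 10 leading genes. In clusters 6 and 12 these included the globins of red cells, which summed to between 141 and 655 CPM in the CD8 T cells. The only such gene was Ccr7 of the dendritic cell list in cluster 5, Ccr2 of the monocyte list in cluster 7 and Cma1 of the mast cell list in cluster 13. Pairs of libraries had 1 to 10 barcodes in common. Tet2 was no lower in the knockout libraries, with 17.9 CPM with anti-PD-L1 and 23.0 untreated in knockout CD8 T cells and 15.6 and 13.5 in wild-type CD8 T cells. These tags read the 3′ end of a messenger and the deleted part of Tet2 is not given in the sources used here, so this level does not check the labels.

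Start-site windows of RefSeq, on GRCm38.p6, were found for 63 of the 83 members. Shown are 6 members described below for their differences between libraries, chosen after their values were seen, followed by Rpl13a, a highly expressed member that varied little. Rps21 has 2 listed windows, of which the first is shown. Each runs from 20 bases before the annotated start to 10 bases from it, 5′ to 3′ on the gene's strand, with the longest run of at least 5 C or T letters near the start in capitals as far as it lies in the 30 bases, and the first where 2 are equally long. Rps29 is not among the 63.
Rpl38 (chr11:114668560-114668589, + strand): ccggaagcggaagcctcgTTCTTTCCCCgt
Rps28 (chr17:33824553-33824582, - strand): tcctgggtaccgcgtgcggtctcgcgagag
Rps21 (chr2:180257359-180257388, + strand): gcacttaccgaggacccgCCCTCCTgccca
Rps27 (chr3:90213639-90213668, - strand): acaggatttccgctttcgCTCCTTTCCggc
Rps27rt (chr9:114982730-114982759, - strand): ggttaagaacttaTCCCTTgctttccggcg
Rpl27 (chr11:101442225-101442254, + strand): ccggaacgctctgTTCCTgtctgctgctcg
Rpl13a (chr7:45128736-45128765, - strand): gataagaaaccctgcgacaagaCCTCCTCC
The run sits across the start of Rpl38, Rps21 and Rps27, and the Rps28 window holds none. Rps27rt has another run of 6 letters, in lower case, which begins at the start. Such a run within 10 bases of the annotated start was found in 43 of the 63 members (68.2%), against 45.8% of 17888 other genes and 44.9% of the 3543 other genes past the level floor used below. Its median length was 9 letters in members and 6 in the others. The start itself was a C or T in 47.6% of members and 23.4% of other genes.

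Promoter motifs were searched on both strands of the full 300 bases, which reach from 250 before to 50 after the start. None of the 4 motifs contains another. CCGGAAG, the core of sites for ETS family factors, was found in 36.5% of members and 11.4% of other genes (23.2% of those past the floor). AANATGGC, as in sites for the factor YY1, was found in 19.05% of members and 6.61% of other genes (10.8%). The SP1 core GGGCGG stood in 58.7% of members and 45.5% of other genes (66.3%), and the TATA box letters TATAAA in 7.94% and 12.7% (7.14%). These are matches of letters and were not tested.

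In CD8 T cells the large majority of members lay close together near the top of all genes, with a short tail of low ones. The floor, a 4-library mean of 20 CPM or more, was passed by 79 of the 83 members, and 65 of them had at least 1000 CPM. The median of members past the floor was 4458 CPM for the 32 small subunit names and 3314 CPM for the 47 large subunit names. These 3′ counts give 1 UMI per captured messenger, so levels of different genes are set side by side without scaling for length. The highest member was Rpl32, a large subunit protein, with 9655 CPM in knockout with anti-PD-L1, 10692 in untreated knockout, 10128 in wild-type with anti-PD-L1 and 9816 in untreated wild-type. Rpl13a, which also takes part in translational silencing in interferon-treated human cells, averaged 8684 ± 549.8 CPM (SD, n = 4 libraries). Rps19, the protein most often mutated in human Diamond-Blackfan anaemia, averaged 8077 ± 494 CPM. Rpl41, a very short peptide of the large subunit, had 8351 CPM in knockout with anti-PD-L1, 6065 in untreated knockout, 9839 in wild-type with anti-PD-L1 and 7535 in untreated wild-type. Its spread was wider than those of Rpl32, Rpl13a and Rps19, with knockout untreated lowest.

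**Figure D1:**
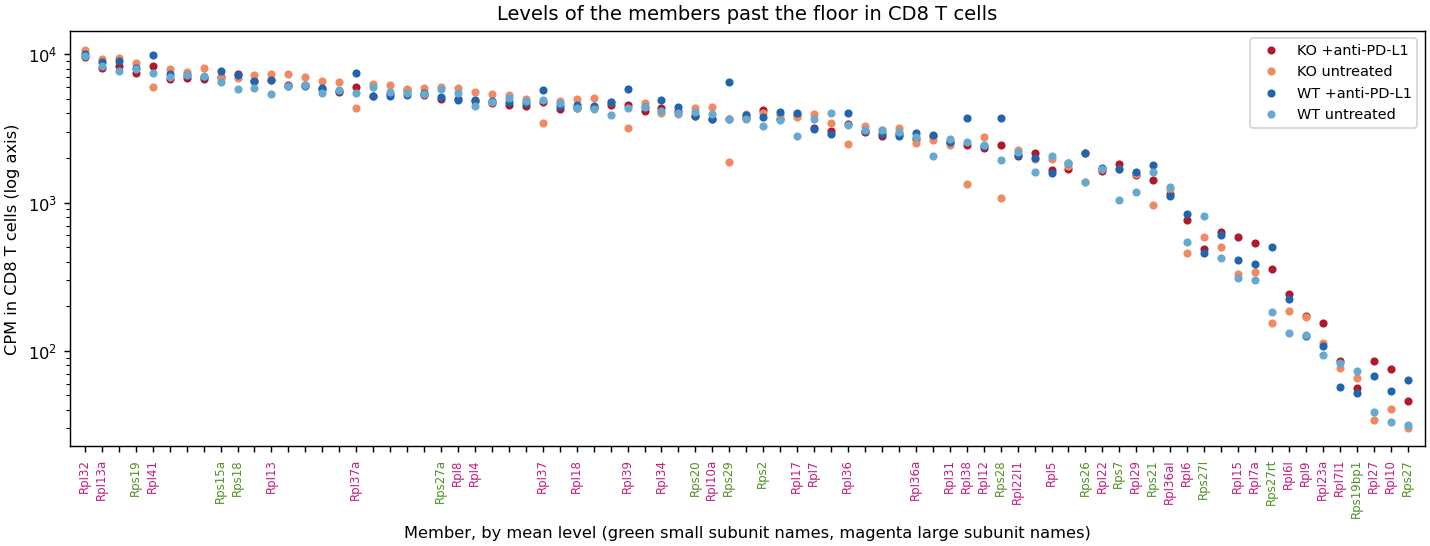
Level of each of the 79 members past the floor in CD8 T cells, in CPM on a log axis, ordered by mean, with a point for each library and names under the members described in the text. Most members sit between 1000 and 10000 CPM with the 4 points close together, Rps29, Rpl38 and Rps28 have knockout untreated far below the other 3, and 14 members lie below 1000 CPM.

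Several members with near-identical copies in the genome stood at the low end. The 5 lowest past the floor were Rps27, Rpl10, Rpl27, Rps19bp1 and Rpl7l1. Rps27, a zinc-binding small subunit protein, had only 45.7 CPM in knockout with anti-PD-L1, 30.3 in untreated knockout, 63.1 in wild-type with anti-PD-L1 and 31.6 in untreated wild-type. Its near-identical copy Rps27rt had 354 CPM in knockout with anti-PD-L1, 154 in untreated knockout, 498 in wild-type with anti-PD-L1 and 183 in untreated wild-type. Rpl10, which joins the large subunit late in its assembly, averaged 50.7 ± 18.5 CPM, and Rpl27, a large subunit protein, 56.2 ± 24.2 CPM. Rps12, a small subunit protein, averaged 4.33 CPM and did not reach the floor, while the column of its pseudogene Rps12-ps3 averaged 193 CPM. The pseudogene columns Rpl23a-ps3 and Rpl27-ps3, at 268 and 68.1 CPM, were also above Rpl23a and Rpl27, at 117 and 56.2 CPM. How the authors counted reads that match several copies is not given in the sources used here, so the levels of Rps12, Rps27, Rps27rt, Rpl9, Rpl10, Rpl23a and Rpl27 are uncertain. Other members have pseudogene columns too, such as Rps26-ps1 at 97.3 CPM and Rpl7a-ps5 at 3.60 CPM. Whether the levels of such members are touched was not tested.

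Some paralogs were lower and some higher than the members they resemble. Rps27l, a copy of Rps27 that p53 induces, averaged 585 ± 162 CPM against the uncertain 42.7 ± 15.3 of Rps27. Rpl36al, a copy of Rpl36a, averaged 1189.95 ± 78.5 against 2724 ± 175 CPM for Rpl36a. Rpl22l1 was higher, at 2162 ± 99.6 CPM against 1675 ± 32.4 for Rpl22, the partner that mouse αβ T cells need to develop. Rpl7l1, a copy of Rpl7, averaged 75.2 CPM against 3469, and Rpl6l, a copy of Rpl6, 196 CPM against 648. Rpl39l, the testis copy of Rpl39, was at 5.13 CPM in wild-type untreated and at or below 0.248 in the other 3 libraries, and Rpl3l and Rpl10l stayed below 1 CPM in CD8 T cells. Rps19bp1, which binds Rps19 and is no ribosomal protein, averaged 61.5 ± 9.40 CPM.

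CD8 T cells gave a larger share of their messengers to these genes than the macrophage-like and melanoma-like cells of the same tumours. In melanoma-like cells the members took 18.0%, 16.7%, 18.6% and 17.5% of UMIs in knockout with anti-PD-L1, knockout untreated, wild-type with anti-PD-L1 and wild-type untreated. In macrophage-like cells they took 12.1%, 13.0%, 14.7% and 15.6%, and in CD8 T cells 29.2%, 30.3%, 31.0% and 28.7%. The ranges of the 3 cell types did not overlap. The difference in share was −15.9 ± 1.94 percentage points for macrophage-like cells against CD8 T cells and −12.1 ± 1.12 for melanoma-like cells against CD8 T cells (SD, n = 4 libraries), lower in 4 of 4 libraries each time. An exact two-sided permutation test that flips the sign of each library's difference gave p = 0.125 for both, the smallest value 4 libraries allow. Small subunit names made up 43.8% to 47.7% of the members' UMIs in every cell type and library.

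**Figure D2:**
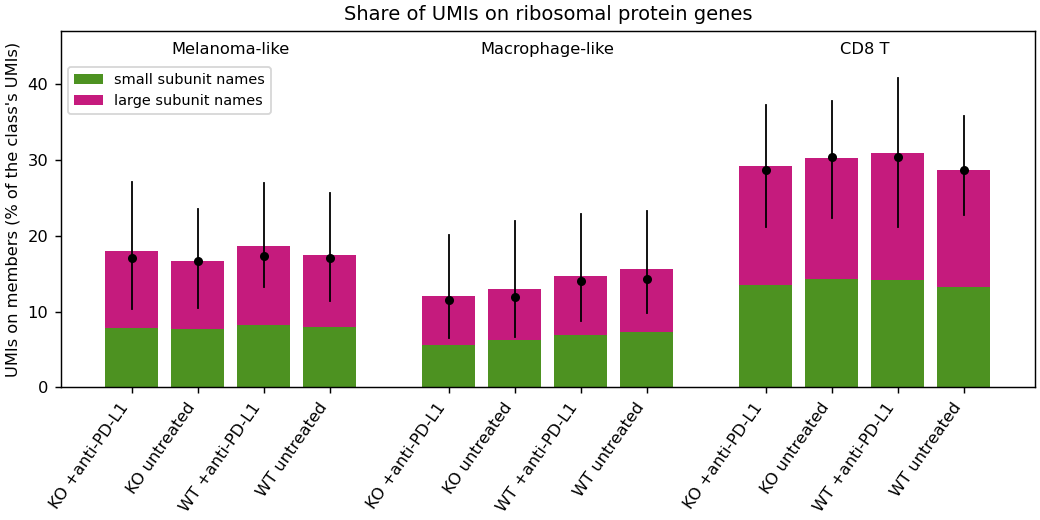
UMIs on small and large subunit names as a percentage of all UMIs of each cell type, by library (bars start at 0), with the median cell as a point and the 5th to 95th percentile of cells as a line. CD8 T cells stand at 28.7% to 31.0%, melanoma-like cells at 16.7% to 18.6% and macrophage-like cells at 12.1% to 15.6%.

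The share is not an amount per cell. The median melanoma-like cell held 1825 to 4920.5 member UMIs, against 1102 to 1977 in the median CD8 T cell, and its total was 10203 to 31763 UMIs against 3750.0 to 6819. The median macrophage-like cell held 428 to 1019 member UMIs. How much of a class's total comes from free RNA of other cells was not tested, and T cell markers summed to between 483 and 1082 CPM in macrophage-like cells and to between 37.3 and 100 CPM in melanoma-like cells. All 7 were above 0 in every library of each.

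In macrophage-like cells nearly all members were lower than in CD8 T cells. The edgeR quasi-likelihood test with the library as a block, adjusted by Benjamini-Hochberg over all 4883 genes tested, called 1 of 79 members higher and 73 lower at an adjusted p under 0.05. Over all genes it called 36.7% higher and 37.4% lower. Library totals without further factors moved the median of all genes to −0.22 here and to 0.25 for melanoma-like over CD8 T cells. The median log2 fold was −0.90 over the members and −0.02 over all genes, and 29 of 32 small and 44 of 47 large subunit names were lower. The lowest fold was that of Rpl22l1, with 533, 619, 562 and 614 CPM in macrophage-like cells of knockout with anti-PD-L1, knockout untreated, wild-type with anti-PD-L1 and wild-type untreated, against 2052, 2275, 2111 and 2209.6 in their CD8 T cells, a log2 fold of −1.69 (SE 0.0901, adjusted p = 1.13e-07). Every macrophage value lay below every CD8 T cell value. Rps2, a small subunit protein near the messenger's path, followed at −1.50 (SE 0.0962, adjusted p = 4.55e-07). Rpl5, a protein that carries ribosomal RNA into the large subunit and can bind Mdm2, stood at −1.44 (adjusted p = 4.22e-07), Rpl12 of the ribosome's stalk base at −1.42 and Rpl4 at −1.41 (adjusted p = 4.89e-06 and 1.52e-06).

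The members at the other end were few. Rps27l rose in macrophage-like cells, with 572, 578, 698 and 818 CPM in the same order of libraries against 485, 586, 456 and 813 in CD8 T cells, a log2 fold of 0.41 (SE 0.111, adjusted p = 0.00727). The ranges overlap, and when totals were taken over other genes only the fold was −0.08. Rps29, a zinc-binding protein of the small subunit, had 3004, 1603, 6144 and 4054 CPM in macrophage-like cells against 3654, 1889, 6476 and 3692 in CD8 T cells and a log2 fold of 0.09 (SE 0.106, adjusted p = 0.483), 1 of 5 members that passed in neither direction. Its macrophage value was the higher in wild-type untreated only, and the sign of its fold turned to −0.12 with library totals. Rps19bp1, Rpl7l1 and Rpl10, the last among the uncertain levels, had folds of 0.20, −0.05 and −0.18 (adjusted p = 0.133, 0.666 and 0.208). Rps28, a small subunit protein, had a fold of −0.49 (SE 0.109, adjusted p = 0.00238) and Rpl38, which mouse embryos need for the translation of Hox messengers, −0.68 (SE 0.120, adjusted p = 0.000603).

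Melanoma-like cells were also lower in nearly every member. The same test called 2 of 79 members higher and 75 lower, against 37.3% higher and 36.7% lower over 5341 genes, with a median log2 fold of −1.05 over the members and −0.01 over all genes. Rpl36a, a large subunit protein encoded on the X chromosome, had 855, 716, 854 and 767 CPM in melanoma-like cells against 2677, 2519.8, 2939 and 2758 in CD8 T cells, a log2 fold of −2.03 (SE 0.0895, adjusted p = 2.63e-07). No library came near overlap. Rpl22, Rps18, Rpl18 and Rps27 followed at −1.63, −1.60, −1.59 and −1.59 (adjusted p = 1.92e-06, 5.24e-07, 2.48e-06 and 9.34e-05), and Rps27 is among the uncertain levels. The members called higher were Rps19bp1, at 0.68 (SE 0.133, adjusted p = 0.0019), and Rps27l, with 896, 1005, 1133 and 1162 CPM against 485, 586, 456 and 813 and a log2 fold of 0.61 (SE 0.115, adjusted p = 0.0015). Rpl7l1 and Rpl31, a large subunit protein, had folds of −0.01 and −0.06 (adjusted p = 0.959 and 0.533), and Rpl36al −0.26 (SE 0.0833, adjusted p = 0.0197). Rps28, Rps29 and Rpl38 stood at −1.17, −0.90 and −1.05 (adjusted p = 5.52e-06, 2.17e-05 and 1.46e-05).

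**Figure D3:**
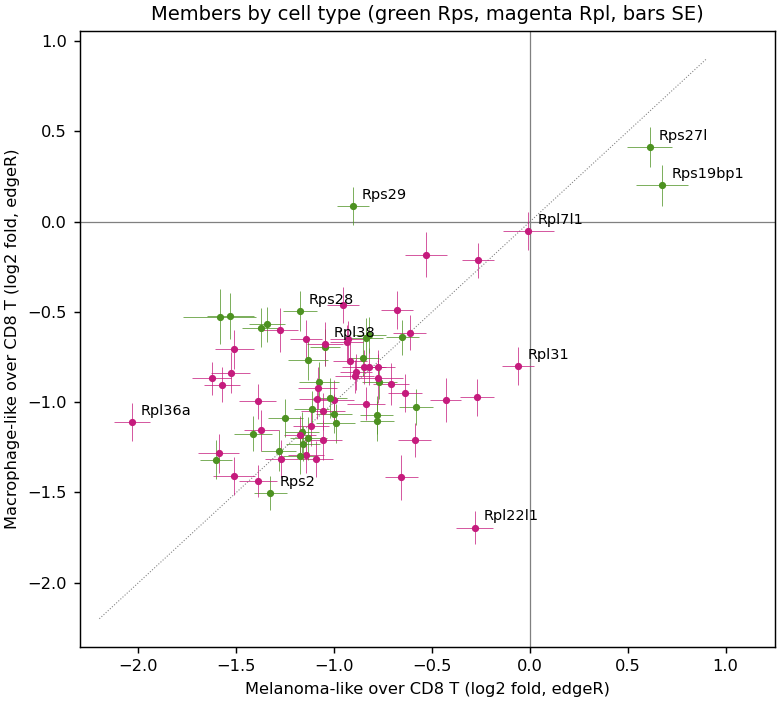
Log2 fold of each member in macrophage-like over CD8 T cells (vertical) against melanoma-like over CD8 T cells (horizontal), with standard errors of the edgeR fit as bars; the dotted line marks equal folds. Nearly all points lie below 0 on both axes, Rps27l lies above 0 on both, Rps29 is at 0.09 and −0.90, and Rpl22l1 at −1.69 and −0.28.

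Between melanoma-like and macrophage-like cells the members split. With the same test 11 of 79 were higher and 17 lower in melanoma-like cells, against 36.9% higher and 34.5% lower over 5394 genes. This split rests on the scaling: with library totals and no further factors 52 were higher and 8 lower, against 55.4% higher and 24.7% lower of all genes, and the median of all genes moved to 0.50 against 0.07. Rpl22l1 had 2384, 2146, 2137 and 1878 CPM in melanoma-like cells against 533, 619, 562 and 614 in macrophage-like cells, a log2 fold of 1.44 (SE 0.131, adjusted p = 7.62e-07), followed by Rpl12 (0.79), Rpl31 (0.77), Rpl36 (0.73) and Rpl7 (0.65). At the other end stood Rps27 (−1.09), Rps27rt (−0.995), Rps29 (−0.96), Rpl36a (−0.90) and Rpl34 (−0.78). All 10 passed the test, with adjusted p between 7.62e-07 and 0.0013, and Rps27 and Rps27rt are among the uncertain levels. Rps28 was lower at −0.65 (SE 0.135, adjusted p = 0.000914) and Rpl38 at −0.34 (SE 0.129, adjusted p = 0.0321), and the direction of Rpl38 flipped to 0.09 with library totals.

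Other genes of protein synthesis, taken from lists, followed the members in part. Of the 5 tested among other cytosolic ribosomal proteins outside the name pattern, all 5 were lower in macrophage-like and all 5 in melanoma-like cells than in CD8 T cells, with Rpsa at −1.70 and −1.61. Of 18 translation factors and other genes of the terminal oligopyrimidine class, 18 were lower in both, among them the elongation factor subunit Eef1g at −1.63 and −1.51. Ribosome biogenesis genes were lower in macrophage-like cells in 18 of 20, led by Myc at −2.69 and the pseudouridine synthase Dkc1 at −2.21, and in melanoma-like cells in 12 of 21 with 1 higher. Mitochondrial ribosomal proteins, which build a separate ribosome, had 9 higher and 31 lower of 71 in macrophage-like cells and 20 higher and 24 lower of 73 in melanoma-like cells. Their medians were −0.17 and −0.04, near the −0.02 and −0.01 of all genes.

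Within the CD8 T cells, those with a Tcf7 UMI held a higher share of member UMIs. Tcf7 encodes a transcription factor of progenitor-like T cells. The share was 32.9%, 31.7%, 35.3% and 29.9% in Tcf7-positive cells of knockout with anti-PD-L1, knockout untreated, wild-type with anti-PD-L1 and wild-type untreated, against 28.3%, 29.7%, 29.7% and 28.2% in Tcf7-zero cells. It was higher in 4 of 4 libraries, by 3.49 ± 1.93 percentage points (SD, n = 4; exact sign-flip permutation test, two-sided p = 0.125, the smallest possible). The edgeR test called 44 of 79 members higher and 0 lower in Tcf7-positive cells, against 9.67% higher and 11.1% lower over 4622 genes. The members were 18 of 32 small and 26 of 47 large subunit names.

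Single folds in that comparison were small. Rps20, a small subunit protein, had 4676, 4782, 4834 and 4408 CPM in Tcf7-positive cells against 3649, 4133, 3575 and 3936 in Tcf7-zero cells, a log2 fold of 0.31 (SE 0.0623, adjusted p = 0.00248). All 4 Tcf7-positive values lay above all 4 Tcf7-zero values. Rpl10a, Rpl6l and Rps21 had folds of 0.30, 0.27 and 0.27 (adjusted p = 0.00251, 0.00812 and 0.00542). Rps28 and Rps29 were higher by 0.24 and 0.23 (adjusted p = 0.00692 and 0.0135), while Rpl38 at 0.06, Rps15a at 0.05, Rps19bp1 at 0.06, Rps27l at 0.00 and Rpl7l1 at −0.12 did not pass (adjusted p = 0.504, 0.634, 0.691, 0.987 and 0.358). The count rests on single libraries: it was 4 without knockout with anti-PD-L1, 15 without wild-type with anti-PD-L1, 21 without knockout untreated and 56 without wild-type untreated, against 5.49%, 5.33%, 5.69% and 9.68% of all genes in that order. Without knockout with anti-PD-L1 the members were thus near the background. Tcf7-positive cells were also deeper in each library, with medians of 3958.5 to 8236 UMIs against 3684 to 6640.0. With every cell thinned to 2000 UMIs, 35 members were higher and 1 was lower, against 4.15% and 4.13% of all genes. Of the related lists, 4 of 5 other cytosolic ribosomal proteins and 8 of 18 translation factors were higher with none lower, led by Eef1b2 at 0.35, and 2 of 21 biogenesis genes were higher, among them Wdr12 at 0.46, with Myc lower at −0.32. Mitochondrial ribosomal proteins had 2 of 72 higher.

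Dividing CD8 T cells, those with at least 2 UMIs over Mki67, Top2a, Birc5 and Cdk1, held a slightly lower share than the others. Members took 29.1%, 30.0%, 30.6% and 28.4% of UMIs in dividing cells of the 4 libraries in the order above, against 29.3%, 30.7%, 31.3% and 29.6% in non-dividing cells. The share was lower in 4 of 4 libraries, by 0.735 ± 0.418 percentage points (SD, n = 4; exact p = 0.125). The test called 3 of 79 members higher and 31 lower, against 19.9% higher and 20.7% lower over 4620 genes, and the members' median log2 fold was −0.08. When the 5 CD8 clusters led by a marker of another cell class were left out, edgeR called 0 of 79 members and 2.33% higher and 0.893% lower of all genes, while the members' median fold was −0.18 and 31 members were lower at an unadjusted p under 0.05. With library totals it called 7 members higher and 23 lower, against 23.9% and 16.3% of all genes. The median dividing cell held 4552.5 to 10378.5 UMIs against 2869 to 5443 in the median non-dividing cell. Rps27l had 551, 669.7, 559.7 and 867 CPM in dividing cells against 396, 443, 369 and 648 in non-dividing cells, a log2 fold of 0.48 (SE 0.0523, adjusted p = 0.000387). Rps19bp1 also passed at 0.26 (adjusted p = 0.0491). Among the lowest were Rps27, Rps27rt, Rps15a and Rpl23a at −0.48, −0.32, −0.24 and −0.21 (adjusted p = 0.00514, 0.00357, 0.00106 and 0.0436). Of these, Rps27, Rps27rt and Rpl23a are among the uncertain levels. Rps28 and Rpl38 were lower at −0.14 and −0.19 (adjusted p = 0.0149 and 0.00373), and Rps29 stood at −0.06 (adjusted p = 0.217). Mitochondrial ribosomal proteins had 24 of 72 higher and 1 lower, led by Mrpl51 at 0.63, and ribosome biogenesis genes 4 higher and 1 lower of 21, with Myc at −0.69.

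Across the groups most members varied little, and a small set varied together. Of the members 78 were past the floor in all 3 cell types. Their median coefficient of variation over the 4 libraries was 9.27% in CD8 T cells, against 13.6% over the 3206 genes past that floor. In CD8 T cells 11 members (14.1%) exceeded 25%, close to the 14.2% of those genes. The medians were 13.5% against 15.9% in macrophage-like and 8.68% against 13.4% in melanoma-like cells. Members have higher counts than most other genes, and the part of counting error in these spreads was not tested. Rps28 had 2461 CPM in knockout with anti-PD-L1, 1072 in untreated knockout, 3722 in wild-type with anti-PD-L1 and 1949.95 in untreated wild-type in CD8 T cells. Rps29 had 3654, 1889, 6476 and 3692 CPM in the same order. Wild-type with anti-PD-L1 was highest and knockout untreated lowest for both genes. Rpl38 had 2455, 1345, 3744 and 2571 CPM and Rps21, a small subunit protein, 1424, 963, 1798 and 1605 CPM, with the same highest and lowest library.

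The order was alike in cells that had not been transferred. Rps28 had 1403, 556, 1951 and 997 CPM in melanoma-like cells and 1356, 586, 2359.6 and 1489.6 in macrophage-like cells, in the order knockout with anti-PD-L1, knockout untreated, wild-type with anti-PD-L1 and wild-type untreated. Rps29 had 2473, 1088, 4433 and 2321 and 3004, 1603, 6144 and 4054. Rpl38 had 1434, 702, 2244 and 1588 and 1119, 663, 2055 and 1825. In each of the 3 cell types wild-type with anti-PD-L1 was highest and knockout untreated lowest. This held for 11 of the 78 members (14.1%), against 0.655% of the 3206 genes, and the set was defined after the values had been seen. The other 8 were Rps21, Rps26, Rps27rt, Rpl6, Rpl36, Rpl37, Rpl37a and Rpl41, of which Rps27rt is among the uncertain levels. Of these 11 members 9 had a start-site window, 6 of them with a pyrimidine run near the start, a share close to the 68.2% of all members with a window. The 3 cell types of a library share its preparation and sequencing, and with 1 library a group the library and the group cannot be told apart.

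**Figure D4:**
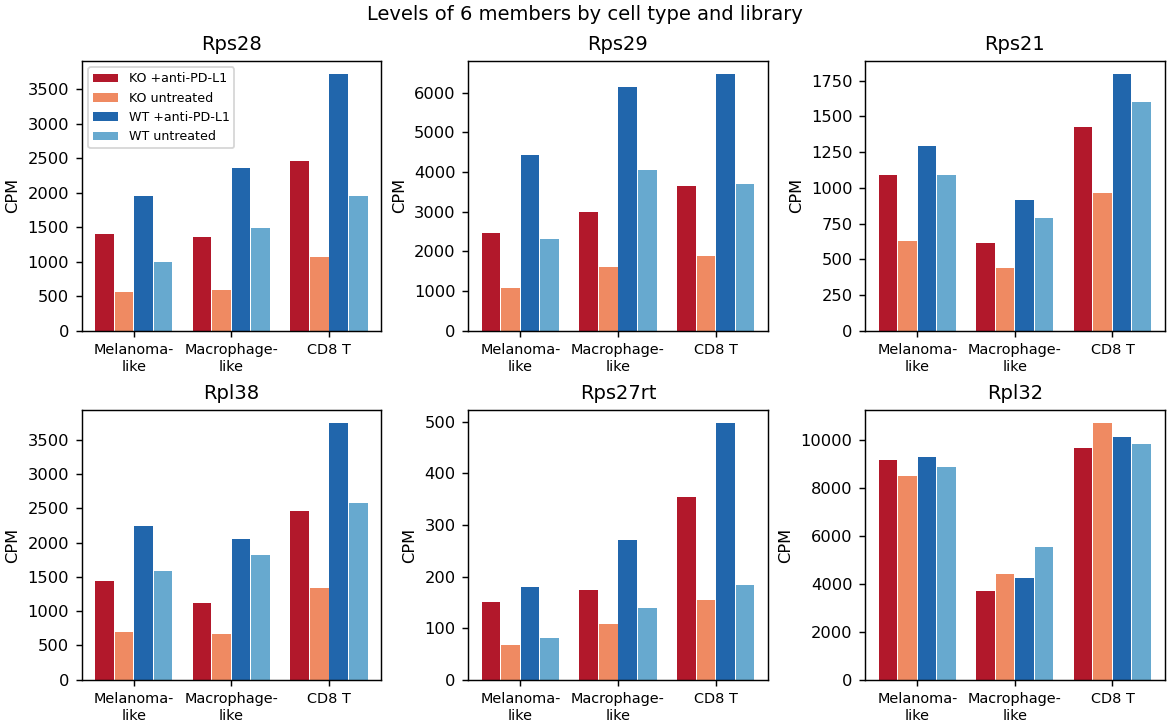
Levels of 6 members in CPM (bars start at 0) in melanoma-like, macrophage-like and CD8 T cells, by library. Rps28, Rps29, Rps21, Rpl38 and Rps27rt are highest in wild-type with anti-PD-L1 and lowest in knockout untreated in each cell type, while Rpl32 varies less and without that order.

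Knockout against wild-type without treatment left the total of the members almost as it was in CD8 T cells. Members took 30.3% of UMIs in knockout untreated and 28.7% in wild-type untreated, a log2 ratio of 0.08 (95% interval 0.07 to 0.08). Intervals here and below are exact and cover counting error only, no p-value can be given with 1 library a group, and the CD8 T cells of the libraries came mostly from different clusters, as given above. With a difference of at least 1.5-fold as the rule of size, 1 of 79 members was higher and 4 were lower, against 8.03% higher and 6.87% lower of 4630 genes. Rps29 had the lowest log2 fold, at −0.97 (95% interval −0.998 to −0.94), then Rpl38 at −0.94 (95% interval −0.97 to −0.90), Rps28 at −0.86 (95% interval −0.91 to −0.82), Rps21 at −0.74 and Rpl37, a zinc-binding large subunit protein, at −0.52. The member past the rule upward was Rps7, which can bind Mdm2, with 1686 CPM in knockout untreated and 1045 in wild-type untreated and a fold of 0.69 (95% interval 0.64 to 0.74). Rpl6l, Rpl13, Rpl17 and Rpl29 followed at 0.49, 0.44, 0.42 and 0.41. The median was 0.10 over the members and −0.10 over all genes, with 53 members above 0 and 26 below. Red cell globins summed to 478 CPM in knockout untreated and 141 in wild-type untreated; their part in these folds was not tested.

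In the other cell types of the untreated tumours the total was lower in the knockout library. The log2 ratio of the member share was −0.26 (−0.27 to −0.25) in macrophage-like and −0.07 (−0.07 to −0.06) in melanoma-like cells. Macrophage-like cells had 0 members 1.5-fold higher and 9 lower of 79, against 12.6% and 12.8% of 4657 genes, and melanoma-like cells 0 higher and 4 lower of 78, against 6.36% and 4.27% of 5504 genes. In each cell type the share of members past the rule was near or below the background. Past it in all 3 cell types were 4 of 78 members, all lower, against 1.22% lower and 0.842% higher of 3206 genes. They were Rps28, Rps29, Rpl38 and Rps21. Rpl38 fell furthest, with log2 folds of −1.18 in melanoma-like and −1.46 in macrophage-like cells. Outside the members, Atp5k, Ndufa3 and Pet100, which encode small mitochondrial proteins, were among the other genes lower in all 3. Ribosome biogenesis genes had a median of −0.44 in CD8 T cells with 1 higher and 3 lower of 21, and Nop58 at −1.13.

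Under anti-PD-L1 the knockout library was again lower in Rps28, Rps29 and Rpl38. The share of member UMIs was 29.2% in knockout and 31.0% in wild-type CD8 T cells, a log2 ratio of −0.09 (−0.09 to −0.08). None of 79 members was 1.5-fold higher and 3 were lower, against 1.14% higher and 1.49% lower of 4630 genes. They were Rps29 at −0.83 (95% interval −0.85 to −0.80), Rpl38 at −0.61 (95% interval −0.63 to −0.58) and Rps28 at −0.60 (95% interval −0.62 to −0.57), followed by Rps27rt and Rps27 at −0.49 and −0.46. The 5 highest were Rpl7l1, Rpl23a, Rpl15, Rpl10 and Rpl7a, between 0.48 and 0.58. Rps27rt, Rps27, Rpl10 and Rpl23a are among the uncertain levels. Rps29 and Rpl38 passed the rule in all 3 cell types, 2 of 78 members against 0.156% lower and 0.0% higher of 3206 genes. The median was −0.04 over the members and 0.09 over all genes. In macrophage-like cells the share ratio was −0.28 (−0.29 to −0.27) and 6 of 79 members were lower with 0 higher, against 5.07% lower and 6.91% higher of 4657 genes. In melanoma-like cells it was −0.05 (−0.06 to −0.05), with 2 of 78 members lower and 0 higher, against 8.68% and 6.74% of 5504 genes.

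The treated knockout library was at least 1.5-fold higher than the untreated one in a set of members and slightly lower in most others. The total was 29.2% with anti-PD-L1 and 30.3% untreated in knockout CD8 T cells, a log2 ratio of −0.05 (−0.06 to −0.05), yet 11 of 79 members were 1.5-fold higher and 0 lower, against 2.87% higher and 1.1% lower of 4630 genes. Rpl27 had 84.8 CPM with anti-PD-L1 and 33.9 untreated, a log2 fold of 1.32 (95% interval 1.12 to 1.53), and Rps27rt 354 and 154 CPM, a fold of 1.20 (95% interval 1.11 to 1.30). Rps28 had a fold of 1.20 (95% interval 1.16 to 1.24), Rps29 of 0.95 (95% interval 0.92 to 0.98) and Rpl38 of 0.87 (95% interval 0.83 to 0.90), and Rpl10 stood at 0.90. The other 5 were Rpl15, Rpl6, Rpl7a, Rps26 and Rps27, between 0.59 and 0.82. Of the 11 members, Rpl27, Rps27rt, Rpl10 and Rps27 are among the uncertain levels, and Rpl7a and Rps26 also have pseudogene columns. Among the lowest were Rpl7, Rps27l, Rps27a and Rpl8, between −0.31 and −0.26. The median was −0.10 over the members and −0.01 over all genes, with 33 members above 0 and 46 below. Past the rule in all 3 cell types were 7 of 78 members, all higher, against 0.811% higher and 0.0936% lower of 3206 genes. They were Rpl10, Rpl15, Rpl27, Rpl38, Rps27rt, Rps28 and Rps29. The pseudogene columns Rpl36-ps3, Rpl27-ps3 and Rpl23a-ps3 were among the other genes higher in all 3. This comparison and the untreated genotype comparison share the knockout untreated library.

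Macrophage-like cells of the knockout libraries had 7 of 79 members higher and 0 lower, against 5.86% and 3.24% of 4657 genes, with Rps28 at 1.21 and a share ratio of −0.10 (−0.11 to −0.09). Melanoma-like cells had 14 of 78 higher and 0 lower, against 2.74% and 4.54% of 5504 genes, with Rps28 at 1.34, Rps29 at 1.18 and a share ratio of 0.10 (0.10 to 0.11).

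Treated wild-type cells also had more of these members than untreated ones, beside a difference in biogenesis genes. The share was 31.0% with anti-PD-L1 and 28.7% untreated in wild-type CD8 T cells, a log2 ratio of 0.11 (0.11 to 0.11). Inside clusters 1, 2, 5, 6 and 9 the treated share was the higher in each. It was 27.4% against 25.5% in cluster 9 and 33.0% against 26.7% in cluster 2. Of 79 members 10 were 1.5-fold higher and 1 lower, against 11.4% higher and 20.4% lower of 4630 genes, so the number higher was near the background. Rps27rt had 498 CPM with anti-PD-L1 and 183 untreated, a log2 fold of 1.44 (95% interval 1.34 to 1.55), followed by Rps27 at 1.00, Rps28 at 0.93 (95% interval 0.90 to 0.97), Rpl27 at 0.81 and Rps29 at 0.81 (95% interval 0.79 to 0.84). Rpl38 stood at 0.54 (95% interval 0.51 to 0.57), within the rule. The other 5 were Rpl6l, Rpl10, Rps7, Rps26 and Rpl6, between 0.63 and 0.76. Of the 10 members, Rps27rt, Rps27, Rpl27 and Rpl10 are among the uncertain levels, and Rps26 also has a pseudogene column. The single member lower was Rps27l, with 456 CPM with anti-PD-L1 and 813 untreated and a fold of −0.83 (95% interval −0.90 to −0.77). Rpl7l1, Rps19bp1 and Rpl5 stood at −0.55, −0.49 and −0.38. Of 21 ribosome biogenesis genes 15 were lower and none higher, with the nucleolar proteins Nop58 and Ncl at −1.33 and −1.04, and of 72 mitochondrial ribosomal proteins 42 were lower and none higher, while 3 of 18 translation factors were lower. The median was 0.08 over the members and −0.18 over all genes. Globins summed to 655 CPM with anti-PD-L1 and 141 untreated, dividing-cell markers to 493 and 922 CPM, and their part was not tested.

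Macrophage-like cells of the wild-type libraries had 5 members higher and 1 lower of 79, against 13.7% and 15.9% of 4657 genes, and melanoma-like cells 8 higher and 0 lower of 78, against 3.51% and 2.85% of 5504 genes. The share ratios were −0.08 (−0.09 to −0.07) and 0.09 (0.08 to 0.09). In all 3 cell types 4 of 78 members were higher, against 0.998% higher and 0.405% lower of 3206 genes. They were Rpl10, Rps27rt, Rps28 and Rps29, of which Rpl10 and Rps27rt are among the uncertain levels.

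**Figure D5:**
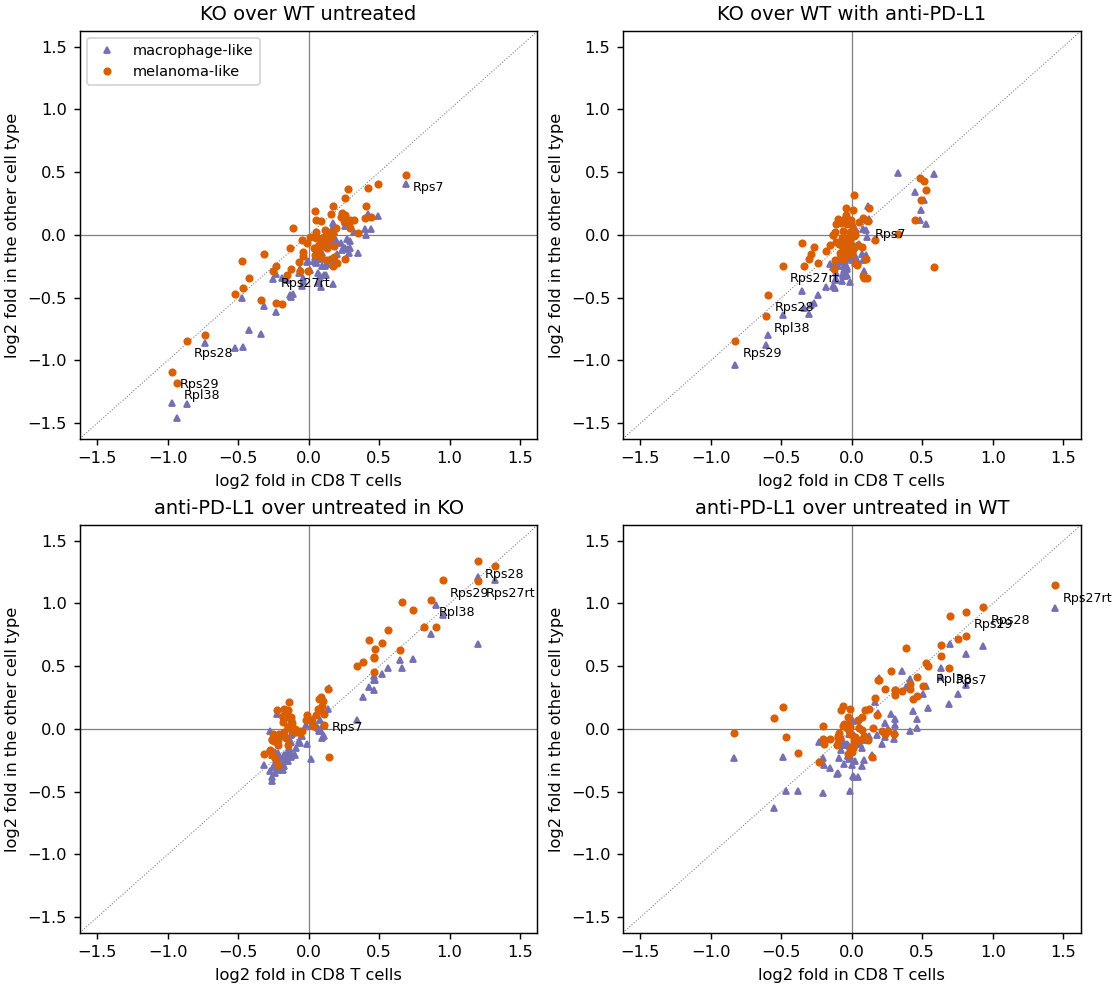
Log2 fold of each of the 78 members in macrophage-like (triangles) and melanoma-like cells (circles) against its fold in CD8 T cells, in a panel for each comparison; the dotted line marks equal folds. Most points lie near the line, with Rps28, Rps29 and Rpl38 at the low end in both genotype comparisons and at the high end with treatment in the knockout.

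Folds of the members in one cell type tracked those in another. Over the 78 members the Pearson correlation between CD8 T and macrophage-like cells was 0.94 for knockout over wild-type untreated, 0.90 with anti-PD-L1, 0.96 for treatment in the knockout and 0.85 in the wild type, against 0.54, 0.23, 0.38 and 0.62 over the 3128 other genes. Spearman's rho over members was 0.86, 0.82, 0.88 and 0.82. Between CD8 T and melanoma-like cells it was 0.89, 0.64, 0.96 and 0.82 over members and 0.56, −0.28, 0.33 and 0.35 over other genes. There Spearman's rho over members was 0.78, 0.38, 0.85 and 0.72, so for genotype with anti-PD-L1 the ranks followed each other less than the values. These are descriptions across genes, which are not independent, and cell types of a library share its preparation, sequencing and any free RNA. Members also have higher counts than most other genes.

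Differences of this size were also found inside clusters. Clusters with at least 20 cells in both libraries compared were set against each other by number, 5 for untreated genotype and for treatment in the wild type (1, 2, 5, 6 and 9) and 8 for the other comparisons. Every cluster on a side came from the same library, so clusters are not replicates of a group. Wild-type untreated had only 45, 28 and 37 cells in clusters 5, 6 and 9. Rps29 was lower in knockout untreated in 5 of 5 clusters, with log2 folds of −1.05 to −0.84, and lower in knockout with anti-PD-L1 in 8 of 8, from −0.92 to −0.72. Rpl38 was lower in 5 of 5 (−1.11 to −0.89) and 8 of 8 (−0.79 to −0.47), and Rps28 in 5 of 5 (−0.98 to −0.64) and 8 of 8 (−0.89 to −0.46). With treatment Rps28 was higher in 8 of 8 clusters of the knockout (1.18 to 1.36) and 5 of 5 of the wild type (0.85 to 1.26). The total also varied between clusters. With the cells of all libraries pooled, the median cell's member share was highest in cluster 6, at 34.8%, whose leading genes include Tcf7 and globins. It was lowest in cluster 9, led by cell division genes, at 26.8%. Clusters 2, 7, 12 and 13 were nearly as low, at 27.0%, 27.9%, 28.0% and 26.9%. Cluster 1, whose leading genes include both Tcf7 and cell division genes, stood at 30.6%, and cluster 5 at 31.7%. Libraries entered these pools unequally, with wild-type untreated giving 681 of 1085 cells in cluster 1 and 45 of 447 in cluster 5. Per library, cluster 1 exceeded cluster 5 in untreated wild type (29.7% against 27.9%) and treated wild type (34.8% against 34.7%). The treated knockout had 34.4% against 31.8%, and only the untreated knockout was reversed (30.9% against 31.6%). Cluster 2 stood at 26.6% in untreated and 32.1% in treated wild type.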

How the data were processed

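The deposited tables hold UMI counts per cell barcode and gene, as deposited by the authors. Build mm10 is named in the submitters' processing notes, while the tool that counted UMIs and called cells is not given in the sources used here. Members and lists were chosen with earlier results of these data known. Each table lists most barcodes in 2 forms, and the form with 2 hyphens was used. Cells with at least 500 genes and at most 10% mitochondrial UMIs were clustered without the members (scanpy 1.11.5, Leiden, 2000 variable genes, 30 components, 15 neighbours, resolution 1.0, Python 3.11.15), giving 14 clusters named from marker lists. No doublet caller was run. Counts were summed per library and cell class. Classes were compared with the edgeR 4.0.16 quasi-likelihood test (R 4.3.3), TMM factors, the library as a block, genes at a mean of 20 CPM or more, and Benjamini-Hochberg adjustment over all genes, checked on simulated counts. Every adjusted p in the text is from that test. The 4 libraries are single samples whose origin in separate animals is not stated. Group comparisons have 1 library a side and give no p; their 95% intervals are exact binomial and cover counting error only. Named genes were Rps28, Rps29, Rpl38, paralogs, the 5 highest and 5 lowest in level and in each comparison, and up to 4 per related list; some genes that this rule names are not reported here. Alternatives were DESeq2 1.42.0, other scalings, floors, filters, gates and cells thinned to 2000 UMIs. The 8 RNA and 8 ATAC samples were not analysed here.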

Additional observations from a re-analysis of the deposited data

Results flagged for a closer look

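A signal lay outside the main measurement, in the 16 pseudogene columns named after members. They took 0.127% of CD8 T cell UMIs in knockout with anti-PD-L1, 0.0836% in untreated knockout, 0.113% in wild-type with anti-PD-L1 and 0.0664% in untreated wild-type, each above the limit that a count of 0 allows. Both anti-PD-L1 libraries were higher than both untreated ones. Rpl23a-ps3 was the most abundant, at 268 CPM on average over the 4 libraries, followed by Rps12-ps3 at 193 CPM. Whether these UMIs come from the pseudogenes or from the members they copy was not tested.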

How the results depend on the processing

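The log2 ratio of the member share summed over CD8 T cells kept its sign in all 4 group comparisons under every alternative run, but not inside every cluster. For knockout over wild type untreated it was 0.0613 with cells weighted equally, 0.0819 with a stricter cell filter, 0.0530 in non-dividing cells and 0.0286 without CD8 clusters led by markers of another class, a setting chosen after seeing the data. For knockout over wild type with anti-PD-L1 it was −0.0812, −0.0963 and −0.109 with equal weights, in non-dividing cells and without those clusters. For treatment in the wild type it was 0.0786, 0.118, 0.0802 and 0.0774 in the first order, and in the knockout −0.0640, −0.0491, −0.0691 and −0.0598. Inside clusters of the knockout the share was higher with treatment in clusters 1, 5, 9 and 13 and lower in clusters 2, 6, 7 and 12. It was 33.0% against 31.0% untreated in cluster 1 and 27.5% against 28.2% in cluster 7. For genotype with anti-PD-L1 it was higher in the knockout in cluster 13 only, at 28.2% against 27.6%. At a log2 fold of 0.32 or more 16, 14, 25 and 20 members passed for knockout over wild type untreated, the same with anti-PD-L1, treatment in the wild type and treatment in the knockout, against 40.6%, 16.5%, 58.2% and 16.7% of all genes. With no floor 8 passed in the first (32.8% of all genes), and with the other barcode listing 5 in the second (2.6%). Melanoma-like over macrophage-like called 60 with library totals and 61 with totals over non-members (80.1% and 81.3% of all genes). Dividing over non-dividing called 22 in thinned cells and 0 without those clusters (13.0% and 3.22%). Without those clusters 15 to 342 non-dividing cells a library remained, and the members' median fold was −0.18 against −0.08 with all clusters. Without a library in turn, 73 to 75 members were called for macrophage-like over CD8 T, against 65.9% to 74.4% of all genes. For melanoma-like over CD8 T it was 74 to 76 (63.9% to 75.3%), and for melanoma-like over macrophage-like 21 to 31 (61.2% to 69.2%). Tcf7-positive cells had 4 to 56 calls (13.9% to 21.7%) and dividing cells 14 to 38 (23.1% to 45.8%).

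Some single folds changed sign, and the cause was not tested. With library totals the macrophage-like over CD8 T folds of Rps29 and Rps19bp1 were −0.12 and −7.93e-05, those of melanoma-like over CD8 T were 0.25 for Rpl7l1 and 0.20 for Rpl31, and Rpl38 in melanoma-like over macrophage-like was 0.092. With totals over non-members the same were −0.41 (Rps29), −0.30 (Rps19bp1), 0.021 (Rpl7l1) and 0.16 (Rpl38), and Rps27l in macrophage-like over CD8 T was −0.085. With the other listing Rpl7l1 was 0.13 and 0.028 against CD8 T cells and Rps19bp1 in Tcf7-positive cells −0.077. Without the clusters named above Rpl7l1 was 0.14 and 0.17 against CD8 T cells and 0.027 in Tcf7-positive cells, Rpl31 was 0.0026 and Rps27l in Tcf7-positive cells −0.13, while Rps20, Rps2 and Rpl23a in dividing cells were −0.17, −0.15 and 1.24e-05. In Tcf7-positive cells Rps27l was −0.0054 with DESeq2 size factors, −0.013 with library totals, −0.0048 with DESeq2, −0.018 with a minimum of 10 counts and −0.40 in thinned cells, where Rps19bp1 was −0.16. Rps2 was −0.074 in thinned dividing cells. Leaving out a library in turn gave −0.024 to 0.13 for Rps29 and −0.12 to 0.0072 for Rpl7l1 in macrophage-like over CD8 T, −0.13 to 0.097 for Rpl7l1 in melanoma-like over CD8 T, and −0.070 to 0.073 for Rps27l, −0.013 to 0.11 for Rps19bp1 and −0.0089 to 0.067 for Rps15a in Tcf7-positive cells.

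No paired analysis was possible because each genotype and treatment group has 1 single-cell library. Cell classes were paired by library. Without that block 67, 73 and 25 of 79 members were called for macrophage-like over CD8 T, melanoma-like over CD8 T and melanoma-like over macrophage-like. Of all genes 67%, 71% and 68% were called in the same order. With 1 library a group, a difference between libraries and a difference between groups cannot be told apart, and depth limits members near the floor of 20 CPM.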

Other observations

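Other genes also moved together in all 3 cell types, and those named here were chosen after their values were seen. Fosb, an immediate-early transcription factor, had log2 folds of 2.02 in CD8 T, 2.35 in macrophage-like and 1.66 in melanoma-like cells for knockout over wild type untreated, and of 3.98, 4.08 and 2.10 for anti-PD-L1 over untreated in the wild type. Zfp36, an RNA-binding protein that destabilises messengers, had folds of 1.70, 0.79 and 0.83 and of 1.29, 1.20 and 0.71 in the same order. Atp5k, a small subunit of the mitochondrial ATP synthase, had −1.23, −1.03 and −1.19 for knockout over wild type untreated, and 0.95, 0.98 and 1.11 for anti-PD-L1 over untreated in the knockout. These comparisons share libraries pairwise.

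Snrpg, a small protein of the spliceosome, had folds of 1.02, 1.00 and 1.18 for anti-PD-L1 over untreated in the knockout. The globin Hbb-bs was at 1.68, 0.80 and 1.49 for knockout over wild type untreated and at −0.84, −4.59 and −4.86 for anti-PD-L1 over untreated in the knockout.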
